A study of Mus musculus with 23 samples.

Results

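Aortas of ApoE-deficient mice were compared by how much RNA of fat cells their arrays carried. For each of 23 arrays the log2 signals of 3 adipocyte genes were averaged: Adipoq, which encodes the fat hormone adiponectin, Plin1, which encodes the coat protein perilipin of the lipid droplet, and Cidea, a lipid droplet protein abundant in brown fat. The 11 arrays above the median of this marker mean are called fat-rich aortas and the 11 below it fat-poor aortas, and the median array, CIH 12W replicate 2, was left out, so that 22 of 23 arrays were compared.

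All mice were ApoE-/- males on the C57BL/6J background that were 8 weeks old at purchase and received high-fat feed, and each array held total RNA of the aorta. There were 5 conditions: CIH 8W (chronic intermittent hypoxia for 8 weeks, n = 5), Nor 8W (normoxia for 8 weeks, n = 5), CIH 12W (hypoxia for 12 weeks, n = 4), CIH 8W+Nor 4W (8 weeks of hypoxia, then 4 weeks of normoxia, n = 4) and Nor 12W (normoxia for 12 weeks, n = 5). The control mice thus carried the same deletion and received the same feed. The labels call the samples biological replicates and do not say whether an array held 1 animal, so the tests below measure the spread between these samples.

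The aorta is surrounded by perivascular adipose tissue, which around the thoracic aorta of mice resembles brown fat and around the abdominal aorta resembles white fat. White adipocytes store triglyceride in a single large droplet. Brown adipocytes hold many small droplets and many mitochondria, burn fatty acids and dissipate the energy as heat through the uncoupling protein Ucp1. Fatty acids released from the droplet by lipases enter the mitochondrion through carnitine palmitoyltransferase, are shortened by beta oxidation, and feed the citrate cycle and the respiratory chain. Nothing in the sources used here says whether the fat was trimmed from the vessel. In RNA of a whole tissue, fewer cells of a type and less RNA per cell cannot be told apart.

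Between 27.3% and 35.86% of probe sets per array exceeded the 95th percentile of the background probes of that array, and array medians lay between 3.63 and 3.778. The smooth muscle genes that define the aortic wall were bright on every array, and Acta2, smooth muscle actin, lay between 19.86 and 19.92 in fat-rich and between 19.88 and 19.92 in fat-poor aortas. On 5 arrays genes of sympathetic neurons stood apart. The signal of Th, tyrosine hydroxylase, was 14.84 on Nor 8W replicate 3, 11.55 on Nor 12W replicate 3, 10.85 on Nor 12W replicate 4, 8.15 on CIH 8W replicate 3 and 7.61 on CIH 8W replicate 5, and none of the other arrays exceeded 5.14. Of these, 3 were fat-rich and 2 fat-poor. Each list median printed below, except those of sympathetic genes, is also given without these 5 arrays where it moved by over 1.5 times. The medians of sympathetic genes were not recomputed without these arrays.

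The 250 bases upstream of the start are printed for 3 of the genes described below (RefSeq, build GRCm38.p6, strand of the gene). They belong to Ucp1, to Acadm, which encodes the medium-chain acyl-CoA dehydrogenase of beta oxidation, and to Slc27a2, which encodes a transporter and activator of fatty acids. Capitals mark AAGGTCA read on the opposite strand, a site bound by estrogen-related receptors and other nuclear receptors. The Ucp1 stretch is chr8:83290098-83290347 on the plus strand, the Acadm stretch chr3:153944644-153944893 on the minus strand, and the Slc27a2 stretch chr2:126552774-126553023 on the plus strand.
Ucp1: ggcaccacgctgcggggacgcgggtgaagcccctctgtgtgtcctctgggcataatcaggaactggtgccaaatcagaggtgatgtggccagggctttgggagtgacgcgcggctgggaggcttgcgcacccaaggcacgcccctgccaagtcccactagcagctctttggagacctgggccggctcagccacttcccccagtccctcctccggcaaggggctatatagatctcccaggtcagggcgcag
Acadm: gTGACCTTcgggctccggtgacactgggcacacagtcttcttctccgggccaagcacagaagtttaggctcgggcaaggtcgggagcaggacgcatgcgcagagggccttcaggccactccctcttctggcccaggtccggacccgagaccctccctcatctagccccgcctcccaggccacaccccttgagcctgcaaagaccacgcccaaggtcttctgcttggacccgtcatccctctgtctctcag
Slc27a2: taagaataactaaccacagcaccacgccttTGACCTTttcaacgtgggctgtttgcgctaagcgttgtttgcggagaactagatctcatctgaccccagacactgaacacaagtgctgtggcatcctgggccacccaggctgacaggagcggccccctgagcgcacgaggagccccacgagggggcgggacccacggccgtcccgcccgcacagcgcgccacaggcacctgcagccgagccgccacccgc
The motif lay 249 to 243 bases before the start of Acadm and 220 to 214 bases before that of Slc27a2, and these letters are not in the Ucp1 window. AAGGTCA on either strand is in 4.7% of the same windows of all 27025 genes with a RefSeq promoter. Of 272 genes that rose with the marker mean in the fit below, 195 had such a window, and 9 of these held the motif (4.62%), a share near that of all genes. Acadm and Slc27a2 are among these 9, so their printed stretches do not stand for the genes that rose. With so many windows missing a comparison of the shares is void. A match describes letters and not a bound site.

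Fat-rich and fat-poor aortas were unevenly spread over the conditions. Of the 5 CIH 8W arrays 2 were fat-rich and 3 fat-poor, and of the 5 Nor 8W arrays 4 were fat-rich and 1 fat-poor. No CIH 12W array was fat-rich and 3 were fat-poor. CIH 8W+Nor 4W had 1 fat-rich and 3 fat-poor arrays, and Nor 12W had 4 fat-rich and 1 fat-poor. The marker mean averaged 9.77 ± 1.02 (SD, n = 5) in CIH 8W and 10.05 ± 0.359 (n = 5) in Nor 8W, and 9.13 ± 0.544 (n = 4) in CIH 12W, 9.53 ± 0.634 (n = 4) in CIH 8W+Nor 4W and 10.65 ± 0.912 (n = 5) in Nor 12W. It ranged over 8.551 to 11.04 within CIH 8W alone. The single markers differed in this. In the same order of conditions Adipoq averaged 9.596, 9.608, 9.114, 9.455 and 10.03, and Plin1 8.698, 8.722, 8.753, 9.019 and 9.86. Cidea, the brown fat gene, averaged 11.02, 11.82, 9.521, 10.12 and 12.05 and spread most between conditions. The marker mean of a condition is therefore not a measure of all fat cell RNA. These values chose the arrays, and their differences between conditions were not tested.

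Nor 12W replicate 5 had the highest marker mean, 12.15, followed by CIH 8W replicate 4 with 11.04. The last array inside the fat-rich side, Nor 8W replicate 5, had 9.95, the array left out 9.89, and the first array on the fat-poor side, CIH 8W+Nor 4W replicate 3, 9.87. The split is therefore a cut through a continuous range. Adipoq (chr16:23146536-23157968) had a lowest, median and highest signal of 9.157, 9.881 and 11.39 in fat-rich aortas and of 8.547, 9.137 and 9.857 in fat-poor aortas. Plin1 (chr7:79721164-79732904) had 8.485, 9.562 and 11.58 in fat-rich aortas and 7.877, 8.673 and 9.258 in fat-poor aortas. Cidea had 10.52, 12.17 and 13.48 in fat-rich aortas and 8.721, 9.707 and 11.58 in fat-poor aortas. Each marker on its own overlapped between the sides, and Cidea spanned the widest range. Nor 12W replicate 3 was fat-poor through Cidea (10.21), against 11.95 on the fat-rich Nor 12W replicate 2. Its Adipoq (9.857) and Plin1 (9.258) lay above those of that array (9.157 and 9.229). Its mean of the adipocyte identity genes described below did so too (10.73 against 10.65). For this array the name fat-poor describes the marker mean only.

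Every difference below is fat-rich minus fat-poor on the log2 scale, from a linear model with a term for the condition, so it compares arrays within a condition. CIH 12W, with no fat-rich array, adds nothing to it, and in Nor 8W, CIH 8W+Nor 4W and Nor 12W 1 side is a single array. The lowest, median and highest signals, and the counts of arrays beyond the other side, are not adjusted for the condition. They include the 3 fat-poor CIH 12W arrays, and the sides are uneven over the conditions, so these values also carry differences between conditions. No probe set passed an adjusted p of 0.05 (limma, Benjamini-Hochberg over 65956 probe sets; lowest adjusted p = 0.486). At an unadjusted p under 0.05 there were 5172 probe sets, or 7.84%. With a fold change over 1.1 added, the thresholds of the study, 1774 probe sets (2.69%) were higher and 2519 (3.82%) lower in fat-rich aortas. After centring each array on its median these counts were 2613 higher and 1502 lower, and after quantile normalization 2391 higher and 1954 lower, so the balance of directions depends on the scaling. Over the 30176 genes, each at its brightest probe set, 970 (3.21%) were higher and 1378 (4.57%) lower, and the median difference was -0.0257. These percentages are the background for the gene lists below, whose members were counted at the study's thresholds.

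The genes that make a cell an adipocyte were higher in fat-rich aortas, as the choice of arrays implies. Of 24 adipocyte identity genes besides Adipoq and Plin1, 18 were higher at the study's thresholds and 0 lower, with a median difference of 0.543. The list shares its cells with the markers, so these counts are a description. Aqp7, the glycerol channel of the adipocyte, had a lowest, median and highest signal of 8.06, 9.034 and 10.81 in fat-rich aortas and of 6.983, 7.808 and 8.328 in fat-poor aortas, with a difference of 1.37 (SE 0.291). In 10 of 11 fat-rich aortas it exceeded every fat-poor aorta. Trarg1, a partner of the insulin-regulated glucose transporter, differed by 1.33 (SE 0.408), Gpd1, which makes the glycerol backbone of triglyceride, by 1.21 (SE 0.558), the droplet protein Cidec by 1.09 (SE 0.363) and Dgat2, which completes triglyceride, by 1.08 (SE 0.438). Pparg, the master regulator of the adipocyte, differed by 1.08 (SE 0.264). Lipolysis genes were among them. Pnpla2, adipose triglyceride lipase, had 14.74, 15.12 and 15.9 in fat-rich aortas and 13.45, 14.33 and 14.79 in fat-poor aortas, a difference of 0.84 (SE 0.185).

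The 6 members that did not pass included the genes of the hormones leptin and resistin. Lep was above background on 3 arrays only and differed by -0.08 (SE 0.247). Retn, which encodes resistin, had 13.11, 14.16 and 16.02 in fat-rich aortas and 12.95, 13.81 and 15.39 in fat-poor aortas, a difference of 0.21 (SE 0.373). The fatty acid receptor Cd36 differed by 0.38 (SE 0.314) and lipoprotein lipase, Lpl, by 0.42 (SE 0.254), with broad overlap of the sides. Both genes are also known from macrophages.

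Brown adipocyte genes made up more of the higher genes than white adipocyte genes did, and the choice of Cidea, a brown fat gene, as a marker favours this. Of 22 brown adipocyte genes besides Cidea, 13 were higher and 0 lower, with a median difference of 0.572. Of 15 white adipocyte genes 0 were higher and 1 lower, with a median of -0.05, and their array means lay between 5.472 and 6.233 in fat-rich and between 5.496 and 6.267 in fat-poor aortas. The lower member was Tcf21, above background on 1 array. The medians moved with the marker. With arrays split on Cidea alone the brown median was 0.819 and the white one -0.182, with Plin1 alone 0.353 and 0.0195, and with Adipoq alone 0.387 and 0.0613. With arrays split within their own condition 12 brown genes and 3 white genes were higher and 0 lower (medians 0.48 and 0.0486), and with the 5 arrays with neuronal genes left out the white median was 0.0262. The lists were not tested against each other.

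Ucp1 (chr8:83290348-83298456) had a lowest, median and highest signal of 13.57, 15.01 and 17.14 in fat-rich aortas and of 7.477, 13.61 and 16.12 in fat-poor aortas. No fat-rich aorta was below 13.57, and 5 of 11 fat-poor aortas were. They included CIH 12W replicate 1 (9.94) and replicate 4 (7.48), whose condition had no fat-rich array. The difference of Ucp1 was 2.09 (SE 0.949), the largest of the list and also the least precise. It amounted to 4.77 within Nor 12W, where the single fat-poor array had 10.32, and to 0.35 within Nor 8W. Cox8b (chr7:140898942-140900446), a cytochrome oxidase subunit of brown fat and muscle, had 5.993, 8.191 and 9.43 in fat-rich aortas and 5.08, 5.973 and 7.43 in fat-poor aortas, a difference of 1.28 (SE 0.426). The related subunit Cox7a1 had 8.873, 11.72 and 12.64 in fat-rich aortas and 7.413, 8.883 and 10.95 in fat-poor aortas, a difference of 1.59 (SE 0.6). Of the 11 fat-rich aortas, 8 for Cox8b and 7 for Cox7a1 lay above all fat-poor ones.

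Cpt1b (chr15:89416405-89425862), the carnitine palmitoyltransferase of muscle and brown fat, had 8.233, 9.305 and 10.7 in fat-rich aortas and 5.989, 7.095 and 8.532 in fat-poor aortas. Its difference of 1.86 (SE 0.388) had the smallest p of the list (unadjusted p = 0.000144, limma, adjusted p = 0.486), and 10 of 11 fat-rich aortas exceeded every fat-poor one. Slc27a2, whose upstream stretch is printed above, had 5.507, 6.773 and 9.98 in fat-rich aortas and 4.022, 5.463 and 6.665 in fat-poor aortas, a difference of 1.68 (SE 0.407). The fatty acid binding protein Fabp3 differed by 1.46 (SE 0.44). Ppargc1a, the coactivator of mitochondrial biogenesis, differed by 1.01 (SE 0.298), the fatty acid sensor Ppara by 0.76 (SE 0.17) and Pank1, which makes coenzyme A, by 1.03 (SE 0.253). Prdm16, a switch of brown fat fate, differed by 0.53 (SE 0.222).

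Some classical brown genes stood outside this pattern. Zic1 and Lhx8, which mark interscapular brown fat in mice, were above background on 0 of 23 arrays. Elovl3, a fatty acid elongase induced by cold, differed by 0.02 (SE 0.668), and Dio2, the enzyme that activates thyroid hormone, by 0.17 (SE 0.245).

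Most genes that burn fatty acids were higher in fat-rich aortas, while the result for those that make them depended on the split. Of 21 genes of fatty acid oxidation, 17 were higher and 0 lower, with a median difference of 0.595, and all 21 differences were above 0. The list mean lay between 11.14 and 12.32 in fat-rich and between 10.1 and 11.24 in fat-poor aortas. Ehhadh, a peroxisomal enzyme, differed by 1.14 (SE 0.432), the thiolase Acaa2 by 1.00 (SE 0.289), Hadhb of the trifunctional protein by 0.93 (SE 0.234) and the very-long-chain dehydrogenase Acadvl by 0.90 (SE 0.247). Acadm had 13.36, 13.74 and 14.76 in fat-rich aortas and 12.37, 12.92 and 13.53 in fat-poor aortas, a difference of 0.66 (SE 0.203). Hadhb exceeded every fat-poor aorta in 10 of 11 fat-rich aortas and Acadm in 6. Cpt1a, the carnitine palmitoyltransferase of liver and most other tissues, differed by 0.01 (SE 0.152), against the 1.86 of Cpt1b.

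Of 16 genes of fatty acid synthesis, 2 were higher and 0 lower, with a median of -0.02. The sign of this median turned in 12 of 37 alternatives, up to 0.248 with no condition covariate, and with arrays split within their own condition 5 of 16 were higher and 0 lower (median 0.19). With the 5 arrays with neuronal genes left out the fatty acid synthesis median was 0.0269. The 2 were Acacb, the acetyl-CoA carboxylase isoform of the mitochondrial surface (0.71, SE 0.228), whose product restrains fatty acid entry, and Mlxipl, a glucose-sensing regulator (0.20, SE 0.0835). Fasn, fatty acid synthase, had 8.773, 12.62 and 14.9 in fat-rich aortas and 7.908, 11.48 and 14.25 in fat-poor aortas. Its difference of -0.13 (SE 0.559) did not pass, and its sign depended on the split. Fasn differed in level between the conditions. In Nor 12W its 4 fat-rich arrays lay between 14.3 and 14.9 and its fat-poor array at 14.25, whereas in CIH 8W the 2 fat-rich arrays had 9.02 and 8.77 and the 3 fat-poor arrays 12.16, 9.93 and 7.91.

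**Figure D1:**
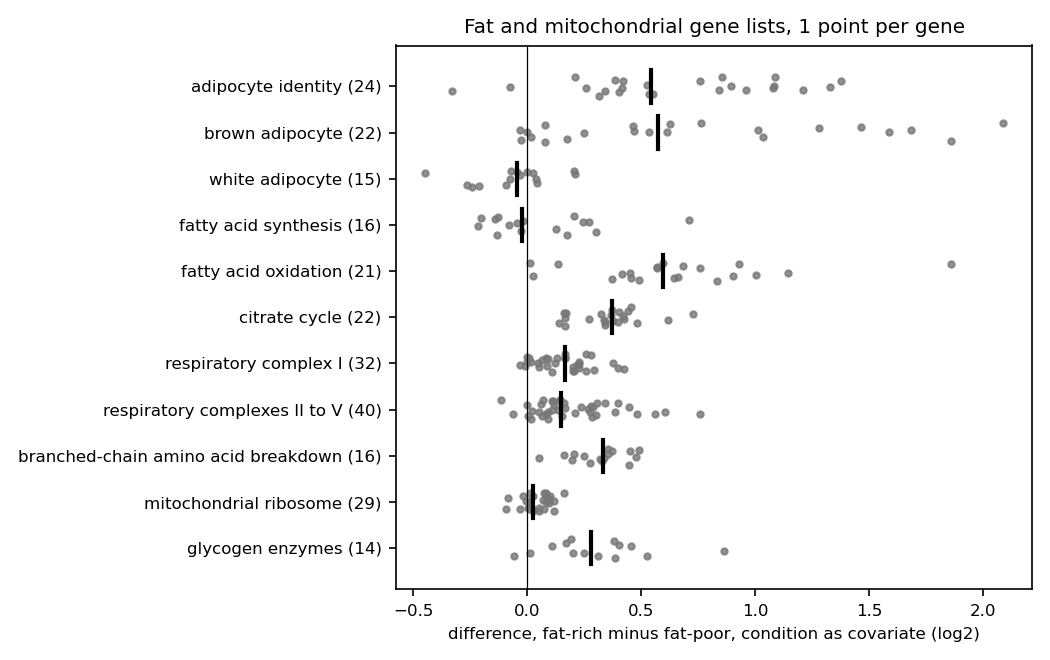
Difference between fat-rich and fat-poor aortas (log2, condition as covariate) for each gene of 11 lists of fat and mitochondrial genes, the markers left out. Points are genes and bars list medians, which run from -0.05 in white adipocyte genes to 0.595 in fatty acid oxidation.

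Among mitochondrial genes downstream of fatty acid oxidation, most of the citrate cycle passed and most of the respiratory chain did not. Of 22 citrate cycle genes, 15 were higher and 0 lower, with a median of 0.371, and all 22 differences were above 0. Idh3a, a subunit of isocitrate dehydrogenase, had 11.59, 12.47 and 13.47 in fat-rich aortas and 10.95, 11.79 and 12.37 in fat-poor aortas, a difference of 0.73 (SE 0.234). Cs, citrate synthase, differed by 0.62 (SE 0.179), Sdha of succinate dehydrogenase by 0.48 (SE 0.14) and Dlst of 2-oxoglutarate dehydrogenase by 0.44 (SE 0.122). Of 32 complex I genes 11 were higher and 0 lower (median 0.165), led by Ndufs1 with 0.42 (SE 0.145). Of 40 genes of complexes II to V, 13 were higher and 0 lower (median 0.148), and the difference was 0.61 (SE 0.165) for the cytochrome Cyc1 and 0.38 (SE 0.0949) for Atp5b of the ATP synthase. Of 29 mitochondrial ribosome genes 1 was higher and 28 did not pass, with a median of 0.0258, or 0.0492 with the 5 arrays with neuronal genes left out. These lists were not tested against each other.

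Enzymes of 2 further fuels moved with the markers. Of 16 genes that break down branched-chain amino acids, 13 were higher and 0 lower, with a median of 0.332, or 0.201 with the 5 arrays with neuronal genes left out. Hibch of valine breakdown had 8.343, 8.73 and 9.519 in fat-rich aortas and 7.868, 8.168 and 8.566 in fat-poor aortas, a difference of 0.49 (SE 0.15). Dbt differed by 0.48 (SE 0.147), Bckdha by 0.45 (SE 0.176) and Bckdhb by 0.45 (SE 0.179), which together encode the dehydrogenase complex that commits these amino acids to oxidation. Of 14 glycogen enzymes 7 were higher and 0 lower (median 0.279). Gys2, the glycogen synthase known from liver and fat, differed by 0.86 (SE 0.362), the widely expressed Gys1 by 0.53 (SE 0.15) and the phosphorylase Pygl by 0.38 (SE 0.158). The median of the glycogen list was 0.142 without Nor 12W replicate 3 and 0.0926 with the 5 arrays with neuronal genes left out.

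The 3 pseudogenes that the study names among its long non-coding RNAs were all higher in fat-rich aortas, and since the study chose them on these arrays they are not independent evidence. Gm13910, which the study describes as a pseudogene of Hadhb, had 12.64, 13.58 and 14.86 in fat-rich aortas and 11.7, 12.47 and 13.15 in fat-poor aortas. Its difference of 0.92 (SE 0.263) stood beside 0.93 (SE 0.234) for Hadhb. Gm5421 (chr10:22343410-22346146) differed by 0.89 (SE 0.267) and Gm12251 (chr11:58392687-58393575) by 0.37 (SE 0.152). Probes for a pseudogene can bind the mRNA of its parent gene, and the part of this in the values was not tested.

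Of 26 measured microRNA precursors of fat and muscle, 3 were higher and 2 lower at the study's thresholds, and 16 were above background on no array. Mir193b and Mir365-1, which lie in 1 cluster on chromosome 16 and are known from the brown adipocyte lineage of mice, were the best measured of the higher ones. Their mature sequences (RefSeq, GRCm38.p6, plus strand) are shown with the seed, bases 2 to 8, in capitals, because the seed sets which mRNAs a microRNA binds.
Mir193b 5p: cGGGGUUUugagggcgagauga
Mir193b 3p: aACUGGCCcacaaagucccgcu
Mir365-1 5p: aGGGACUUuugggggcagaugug
Mir365-1 3p: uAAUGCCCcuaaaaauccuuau
None of the 4 seeds is shared. The Mir193b precursor (chr16:13449523-13449601) had 5.561, 5.739 and 6.022 in fat-rich aortas and 5.307, 5.665 and 5.855 in fat-poor aortas, a difference of 0.23 (SE 0.0806) with the same sign in 4 conditions. The Mir365-1 precursor (chr16:13453840-13453926) had 4.876, 5.489 and 6.004 in fat-rich aortas and 4.8, 5.359 and 6.02 in fat-poor aortas, a difference of 0.38 (SE 0.131). The sides overlapped widely in both, and neither was called in the fit on the marker mean described next. The arrays measured precursors and not the mature forms.

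A split discards the size of the fat signal, so the marker mean was also fitted as a number over all 23 arrays, again with the condition as a term. The slope is the log2 change of a gene per unit of marker mean. Genes of fat cells share their cells with the markers, so their slopes follow in part from the choice of markers. In this fit 334 probe sets (0.506%) rose with the marker mean at an adjusted p under 0.05 (limma), 331 of them besides the 3 markers, and 13 (0.0197%) fell. Over genes the background was 274 higher (0.908%) and 6 lower (0.0199%). Of 278 distinct named genes, 87 were in the lists of fat and mitochondrial genes. The calls rested in part on the arrays with the most fat: 160 rose and 4 fell without Nor 12W replicate 5, 209 rose and 2 fell without CIH 8W replicate 4, and 51 rose and 1 fell without both.

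The lists differed in how many members passed. At an adjusted p under 0.05 over all probe sets, 17 of 21 fatty acid oxidation genes rose with the marker mean, as did 15 of 22 citrate cycle genes, 11 of 16 genes of branched-chain amino acid breakdown, 15 of 24 adipocyte identity genes, 10 of 32 complex I genes, 10 of 40 genes of complexes II to V and 9 of 22 brown genes. Among the remaining lists 1 of 16 synthesis genes, 1 of 29 mitochondrial ribosome genes and 0 of 15 white genes rose. In the median fatty acid oxidation gene the marker mean accounted for 74.3% of the variance within conditions, against 61.3% for citrate cycle genes, 39.1% for brown genes, 7.6% for white genes and 4.41% over all genes. For Cpt1b the slope was 1.27 (SE 0.171, adjusted p = 0.0004, limma) and for Pnpla2 it had an adjusted p of 8.88e-06 (limma). The lists of fat cell genes share their cells with the markers, so their counts and these p-values are a description. In limma Ucp1 did not pass, with a slope of 1.61 (SE 0.495, adjusted p = 0.274), nor did Cox7a1 (adjusted p = 0.105) or Fabp3 (adjusted p = 0.279). The marker mean accounted for 35.4% of the variance of Ucp1 within conditions.

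**Figure D2:**
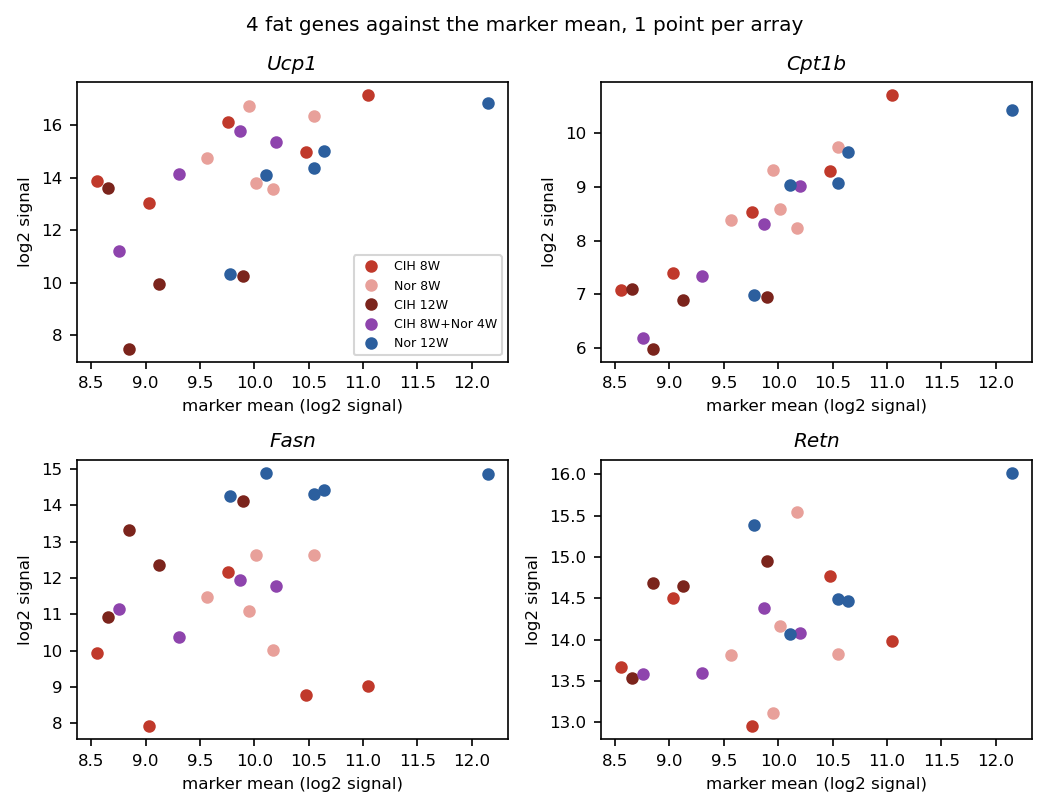
Log2 signal of Ucp1, Cpt1b, Fasn and Retn on each of the 23 arrays against the marker mean of that array, by condition. Cpt1b lies between 5.989 and 10.7 and is higher where the marker mean is higher, Ucp1 is as low as 7.48 on a CIH 12W array, and the Nor 12W arrays lie highest for Fasn, between 14.25 and 14.9.

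The 5 genes most like the marker mean were chosen by Pearson's r over 23 arrays after removal of the condition means, which is given as a description. They were Slc36a2 (r = 0.989), a proton-coupled amino acid transporter, Crat (0.974), which moves acetyl groups between carnitine and coenzyme A, Adhfe1 (0.971), an alcohol dehydrogenase of mitochondria, Eci1 (0.964), an isomerase of beta oxidation, and Gnpat (0.958), which starts ether lipid synthesis in peroxisomes. The arrays share their RNA and their normalization with the markers. Slc36a2 had 8.651, 9.195 and 10.84 in fat-rich aortas and 7.504, 7.796 and 8.686 in fat-poor aortas. Crat had 9.709, 9.913 and 11.01 in fat-rich aortas and 9.042, 9.194 and 9.601 in fat-poor aortas, and it was 1 of 2 probe sets higher in fat-rich aortas without overlap of the sides, among 65956.

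Genes that fell with the marker mean were few. The 6 named ones were Prelid1, a lipid carrier of mitochondria (slope -0.20, SE 0.0409, adjusted p = 0.0214, limma), Pea15a (-0.22, SE 0.0464), Arpc4 of the actin-branching complex (-0.21, SE 0.0448), the secreted Wnt antagonist Sfrp1 (-0.46, SE 0.0984), Rnaseh2b (-0.35, SE 0.0759) and Aprt of purine salvage (-0.26, SE 0.0585). Sfrp1 had 11.81, 12.89 and 13.21 in fat-rich aortas and 12.44, 13.05 and 13.95 in fat-poor aortas. Its sides overlapped, as they did in all 6.

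Hypoxia enters this comparison only as a term of the model, and targets of the hypoxia-inducible factor were examined for that reason. Of 16 such genes, 4 were higher and 0 lower in fat-rich aortas, with a median of 0.0305. This median kept its sign in 35 of 37 alternatives and was -0.00765 without CIH 8W replicate 5. Egln3, an oxygen-sensing prolyl hydroxylase, had 6.05, 6.397 and 7.253 in fat-rich aortas and 5.836, 6.285 and 6.718 in fat-poor aortas, a difference of 0.52 (SE 0.112). Egln1 differed by 0.41 (SE 0.173). Bnip3, a mitophagy receptor, differed by 0.63 (SE 0.216) and rose with the marker mean (slope 0.49, SE 0.101, adjusted p = 0.0239, limma), and the vessel growth factor Vegfa differed by 0.41 (SE 0.159) and rose as well (slope 0.38, SE 0.0821, adjusted p = 0.0392, limma). The canonical targets Slc2a1 (0.20, SE 0.186) and Pgk1 (0.18, SE 0.197) did not pass. The part of fat cells in the values of these genes was not tested.

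Lists of other cell types were examined for what else differed between the sides. Of 16 adventitial fibroblast genes 1 was higher and 8 lower, with a median of -0.237. Lum, the matrix protein lumican, had 14.43, 15.68 and 15.91 in fat-rich aortas and 15.27, 15.67 and 16.95 in fat-poor aortas, a difference of -0.56 (SE 0.203). Fap differed by -0.48 (SE 0.14) and Cd34, a marker of adventitial progenitors, by -0.43 (SE 0.134). The medians of the sides were alike for Lum, and 4 of 11 fat-poor aortas lay above all fat-rich ones. Without Nor 12W replicate 3, the single fat-poor array of its condition, the list median was -0.089, and with the 5 arrays with neuronal genes left out it was -0.0608.

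Of 15 resident macrophage genes 0 were higher and 2 lower (median -0.464), and of 14 plaque macrophage genes none passed in either direction (median -0.322). Folr2, a folate receptor of resident macrophages, had 11.32, 12.34 and 13.05 in fat-rich aortas and 11.64, 12.62 and 14.66 in fat-poor aortas, a difference of -1.02 (SE 0.319). Fcrls, known from microglia and tissue macrophages of mice, differed by -0.94 (SE 0.199). Without Nor 12W replicate 3 the median of the resident list was -0.267, and with the 5 arrays left out that of the resident list was -0.175 and that of the plaque list -0.0635. The general macrophage marker Cd68 differed by -0.56 (SE 0.604), within its spread.

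Of 20 contractile smooth muscle genes 4 were higher and 0 lower (median 0.276): Myocd, the coactivator of the contractile programme (0.87, SE 0.287), Lmod1 (0.70, SE 0.328), Synpo2 (0.65, SE 0.245) and Itga8 (0.28, SE 0.133). Myocd had 11.46, 12.2 and 12.84 in fat-rich aortas and 9.864, 12.06 and 12.59 in fat-poor aortas, of which 2 lay below all fat-rich ones. The list median was 0.128 without Nor 12W replicate 3 and 0.0208 with the 5 arrays with neuronal genes left out. Acta2 differed by -0.00264 (SE 0.0242) near the top of the range of the array. Of 14 endothelial genes 1, the TGF-beta coreceptor Eng (-0.38, SE 0.0952), was lower and 0 were higher. Of 12 capillary endothelial genes 2 were higher and 1 lower, and Rgcc (0.86, SE 0.282) rose with the marker mean (slope 0.79, SE 0.0925, adjusted p = 8.85e-05, limma).

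Of 10 mesothelial genes 5 were higher and 0 lower (median 0.205, or 0.566 with the 5 arrays with neuronal genes left out). Upk3b, which encodes a uroplakin of the mesothelium, had 4.017, 4.625 and 7.271 in fat-rich aortas and 3.802, 4.125 and 5.204 in fat-poor aortas, a difference of 0.77 (SE 0.338), and was above background on 3 arrays. Upk1b differed by 0.84 (SE 0.314). Of the 10, 4 were above background on no array, and the list mean lay between 3.945 and 5.474 in fat-rich and between 3.828 and 4.544 in fat-poor aortas. Of 20 heart and skeletal muscle genes 2 were higher, Myh1 (1.45, SE 0.669) and Tnnt3 (1.39, SE 0.658), and the list mean lay between 4.909 and 7.062 in fat-rich and between 4.872 and 5.963 in fat-poor aortas. The sympathetic list had 0 higher and 0 lower of 13 (median -0.392), and its mean lay between 4.762 and 11.59 in fat-rich and between 4.774 and 9.54 in fat-poor aortas. The part of these cells in the differences of other genes was not tested.

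**Figure D3:**
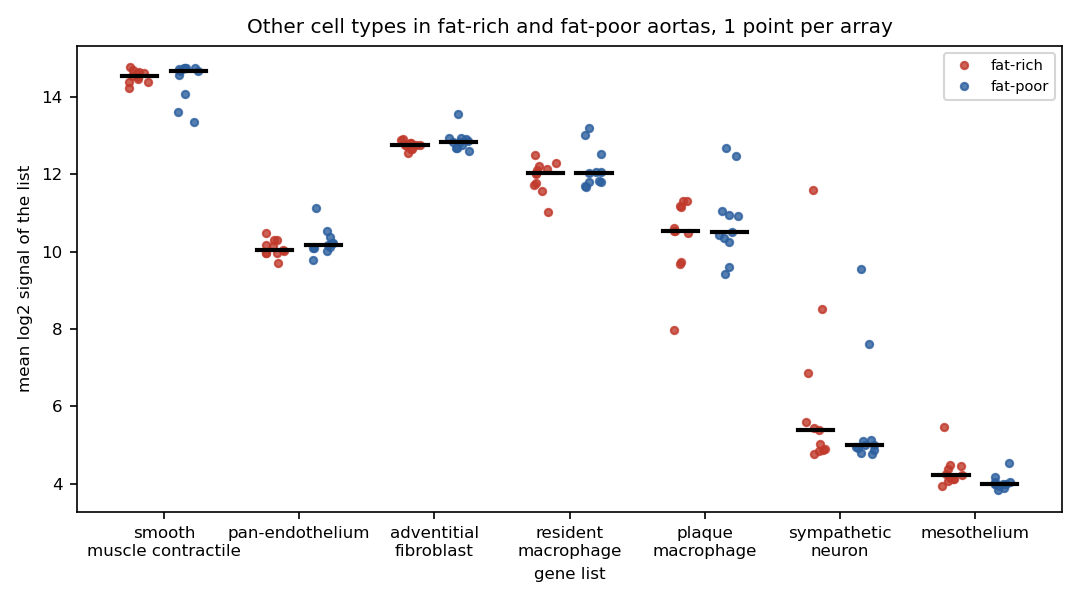
Mean log2 signal of gene lists of other cell types on fat-rich and fat-poor aortas, 1 point per array. Fibroblast means run from 12.55 to 12.91 in fat-rich aortas and from 12.6 to 13.55 in fat-poor aortas, where the highest is Nor 12W replicate 3.

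Over all genes, whether in a list or not, the 10 of smallest p that were higher in fat-rich aortas were Fitm2, Marchf6, Impdh1, Rab3ip, Cpt1b, Chchd10, Aqp7, Egln3, Camsap2 and Uhrf1bp1l. Fitm2, which buds lipid droplets from the endoplasmic reticulum, had 6.927, 7.383 and 7.846 in fat-rich aortas and 6.583, 6.812 and 7.096 in fat-poor aortas, a difference of 0.61 (SE 0.124, unadjusted p = 9.75e-05, limma, adjusted p = 0.486). Chchd10, a small mitochondrial protein, had 5.779, 6.284 and 6.836 in fat-rich aortas and 5.005, 5.36 and 5.81 in fat-poor aortas, a difference of 0.67 (SE 0.139). Both exceeded every fat-poor aorta in 10 of 11 fat-rich aortas.

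The 10 with the smallest p that were lower were Mageb8-ps, Rcn1, Fos, Gm25407, Gm25013, Rfc5, Fcrls, Tyms, Gm7237 and 4930591E09Rik. Mageb8-ps, Gm25407, Gm7237 and 4930591E09Rik were above background on 0 arrays and Gm25013 on 1. Rcn1, a calcium-binding protein of the endoplasmic reticulum, differed by -0.55 (SE 0.107), and the DNA synthesis genes Tyms by -0.24 (SE 0.0514) and Rfc5 by -0.18 (SE 0.0392). Fos, an immediate early transcription factor, had the largest difference of these 10. It had 6.177, 6.751 and 7.495 in fat-rich aortas and 6.991, 9.569 and 10.79 in fat-poor aortas, a difference of -2.27 (SE 0.446, unadjusted p = 7.29e-05, limma, adjusted p = 0.486). Of the 11 fat-poor aortas 10 lay above all fat-rich ones, the exception being Nor 12W replicate 3 with 6.99, and the array left out had 10.2. The slope of Fos on the marker mean was -0.97 (SE 0.343, adjusted p = 0.396, limma) and did not pass.

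The 3 comparisons of the study were then fitted with the marker mean of each array as a covariate, to describe which of their calls depend on it, at the thresholds of the study given above. For CIH 8W vs. Nor 8W 2493 probe sets were higher (3.78%) and 1646 lower (2.5%) with the marker mean, and 2631 were higher (3.99%) and 1626 lower (2.47%) without it. Of the calls, 3671 were shared in the same direction, or 88.7% of those with and 86.2% of those without, and in limma 0 passed an adjusted p of 0.05 in either fit. For CIH 12W vs. CIH 8W+Nor 4W there were 1724 higher (2.61%) and 2757 lower (4.18%) with it and 1606 higher (2.43%) and 2569 lower (3.9%) without it, of which 3664 were shared (81.8% of those with and 87.8% of those without). At an adjusted p under 0.05 (limma) 4 were higher (0.00606%) and 3 lower (0.00455%) with it, against 6 higher (0.0091%) and 6 lower (0.0091%) without it. This comparison shares the CIH 12W arrays with the next.

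For CIH 12W vs. Nor 12W, the comparison whose groups differed most in marker mean, 3701 probe sets were higher (5.61%) and 5692 lower (8.63%) with the marker mean, and 2829 were higher (4.29%) and 4612 lower (6.99%) without it. Of these, 5035 calls were shared, 53.6% of those with and 67.7% of those without. At an adjusted p under 0.05 (limma) 36 were higher (0.0546%) and 71 lower (0.108%) with the marker mean, 128 were higher (0.194%) and 459 lower (0.696%) without it, and 93 were shared. The marker means of CIH 12W (8.655 to 9.892) and Nor 12W (9.773 to 12.15) hardly overlap, so the fit carries the slope of other conditions into a range that these 2 groups do not share, and the fat signal and the condition cannot be told apart in them.

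In most lists of fat and mitochondrial genes fewer members passed with the marker mean than without it. The covariate is itself made of fat cell genes, so this follows in part from the choice of markers. Over all genes, 6.56% were higher and 9.9% lower for CIH 12W vs. Nor 12W with the marker mean, and 5.17% were higher and 7.81% lower without it. Against this, 7 of 21 fatty acid oxidation genes were lower with the marker mean (median -0.345) and 19 of 21 without it (median -0.971). Of 22 citrate cycle genes 3 were lower with it and 18 without it, of 32 complex I genes 6 and 27, and of 40 genes of complexes II to V 14 and 36. Of 22 brown genes 3 were higher and 0 lower with it (median -0.0536), and 0 higher and 11 lower without it (median -0.7). Branched-chain amino acid breakdown was an exception, since 5 of 16 genes were higher and 1 lower with it (median 0.16), and 0 higher and 6 lower without it (median -0.25). At the adjusted threshold 0 genes of fatty acid oxidation passed with the marker mean and 6 without it. Without Nor 12W replicate 3, 11 fatty acid oxidation genes and 8 genes of complexes II to V were lower with the marker mean, 18 and 36 were lower without it, and the branched-chain medians were 0.0964 with it and -0.396 without it. With the 5 arrays with neuronal genes left out, 4 genes of complexes II to V and 2 of complex I were lower with it, 35 and 26 without it, and at the adjusted threshold 1 gene of fatty acid oxidation passed without it. The branched-chain medians were then 0.0754 with the marker mean and -0.454 without it, and the brown median with it was -0.117.

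The difference CIH 12W minus Nor 12W of Ucp1 was -1.38 (SE 1.3) on the log2 scale with the marker mean and -3.82 (SE 1.28) without it, and its difference CIH 12W minus CIH 8W+Nor 4W was -3.15 with it and -3.80 without it. Cox8b differed by -0.79 (SE 0.474) with it and -2.40 (SE 0.629) without it, Cox7a1 by -1.26 (SE 0.79) and -3.08 (SE 0.848), and Cpt1b by -0.37 (SE 0.448) and -2.30 (SE 0.701). None of these 4 genes passed the study's thresholds for CIH 12W vs. Nor 12W with the marker mean, and all 4 passed without it. The marker mean holds the brown fat gene Cidea, which averaged 9.521 in CIH 12W and 12.05 in Nor 12W. The loss of these calls therefore follows in part from the choice of markers. The difference of Gm13910 was -0.73 (SE 0.258) with it and -1.87 (SE 0.411) without it, and that of Gm5421 -0.27 (SE 0.32) and -1.31 (SE 0.413). A difference between 2 fits of the same arrays is a description and was not tested.

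**Figure D4:**
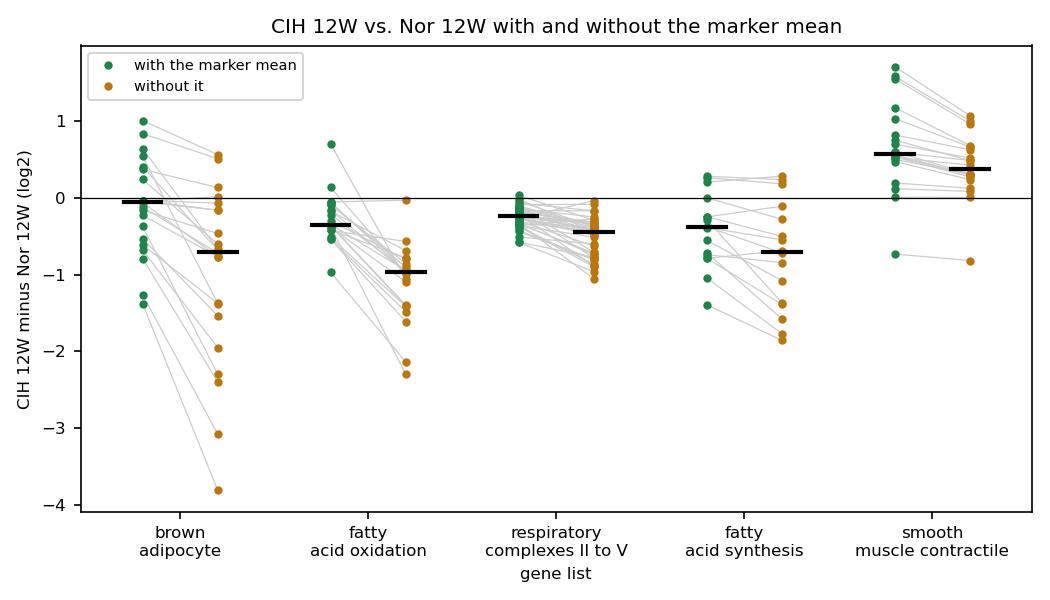
Difference CIH 12W minus Nor 12W (log2) of genes in fat, mitochondrial and smooth muscle lists, with the marker mean as a covariate and without it. Fatty acid oxidation genes have a median of -0.345 with it and -0.971 without it, and smooth muscle genes 0.582 and 0.375.

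In the same comparison 13 of 20 smooth muscle genes were higher with the marker mean (median 0.582) and 6 without it (median 0.375). The list mean was 13.61 on Nor 12W replicate 3 and lay between 14.23 and 14.61 on the other Nor 12W arrays. Without that array 5 genes were higher with the marker mean (median 0.389) and 3 without it (median 0.235), and with the 5 arrays with neuronal genes left out 4 with it (median 0.243) and 5 without it (median 0.245). Lists of other cells moved beside them. The plaque macrophage median was -1.07 with the marker mean and -0.392 without it, and the sympathetic median -1.85 with it and -1.21 without it. Few members passed. Of 14 plaque macrophage genes 2 were lower with it and 1 without it, and of 13 sympathetic genes 1 and 0, with 0 higher in each. Over all genes 9.9% were lower with it and 7.81% without it. With the 5 arrays with neuronal genes left out the plaque macrophage median without the marker mean was -0.222. The part of these other cells in the smooth muscle values was not tested. Myocd was higher by 1.72 (SE 0.472) with it and by 1.08 (SE 0.425) without it. Pygl was lower at the adjusted threshold in both fits, with a difference of -1.19 (SE 0.184, adjusted p = 0.0345, limma) with the marker mean and of -1.76 (SE 0.231, adjusted p = 0.00191, limma) without it. Of 16 synthesis genes 2 were higher and 0 lower with it (median -0.38), and 1 higher and 10 lower without it (median -0.699). With the 5 arrays with neuronal genes left out the synthesis median with the marker mean was -0.241. Fos differed by 0.91 with it and by 2.39 without it.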

How the data were processed

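Aortic RNA of 23 samples was hybridised to Clariom D arrays, which measure exons and non-coding RNAs in 1 colour. As deposited, the values are log2 signals of probe sets, 1 column an array. The authors' methods name the Transcriptome Analysis Console and the submitters' processing notes Affymetrix Expression Console for the normalization, and a signal has no unit beyond that scale. The table was used without further scaling. Of 72688 probe sets, 6732 controls were left out and 65956 tested; 30638 carried 1 gene symbol, 2176 several and 33142 none, by the platform annotation. Where a gene had several probe sets the brightest one stood for it (30176 genes). Linear models were fitted with limma 3.58.1 (lmFit and eBayes) in R 4.3.3, with Benjamini-Hochberg adjustment over all 65956 probe sets and a call at an adjusted p under 0.05. The study's own thresholds were used to count list members. A probe set was above background where it exceeded the 95th percentile of the background probes of its array. Arrays give no read depth, so their number limits the precision. No 2 arrays were identical (highest r = 0.9969). The fit of the split was tested on simulated data first, and the fits with the marker mean were not.

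Named genes were the 3 markers, Ucp1, Cox8b, Cox7a1, Fabp3 and the pseudogenes the study names, up to 5 members of each list discussed by p (in fat lists by size), the defining members of each cell type list, the 10 genes of smallest p in each direction, called microRNA precursors and the 5 genes most like the marker mean. Slc27a2, Ppargc1a, Ppara, Pank1, Prdm16, Elovl3, Dio2, Cpt1a, Fasn, Lep, Retn, Cd36, Lpl, Slc2a1, Pgk1 and further members outside this rule were picked once values had been seen. The arrays compared and the 40 gene lists (636 of 717 listed genes measured) were chosen with earlier results of these data known. Replicate numbers of the labels were not used to pair arrays in the main fits. Alternatives covered the covariate, the markers, the split, scaling, dim probe sets, moderation, array weights, thresholds, the replicate number and each array in turn. The fit on the marker mean was planned as an alternative of the split, and its own alternatives, like those that left arrays out of the gene lists in CIH 12W against Nor 12W, were chosen after seeing the data. Promoter and microRNA sequences came from RefSeq tables of GRCm38.p6.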

Additional observations from a re-analysis of the deposited data

Results flagged for a closer look

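In each of 75 groups of 4 or 5 arrays of a condition, over 15 measures, the highest or lowest array was set against the others by Dixon's test, which chance passes in about 1 in 20 groups, and 4 stood apart. The mean of the adipocyte identity genes was 12.21 on Nor 12W replicate 5, the array with the most fat, and lay between 10.65 and 11 on the other Nor 12W arrays. These genes share their cells with the markers that chose the arrays, so this value is a description. On Nor 12W replicate 3, the single fat-poor array of its condition, the adventitial fibroblast genes averaged 13.55 (12.74 to 12.91 on the others) and the resident macrophage genes 13.02 (12 to 12.14 on the others). As given above, this array was fat-poor through Cidea and not through Adipoq or Plin1. The white adipocyte genes averaged 5.533 on CIH 12W replicate 3, against 5.758 to 5.761 on the other CIH 12W arrays.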

How the results depend on the processing

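The split called 0 probe sets higher and 0 lower at an adjusted p under 0.05 in limma, and likewise under both scalings, without dim probe sets, with a trended or a robust prior, with array weights, with the replicate block, Adipoq or Plin1 alone, and with the neuronal or the CIH 12W arrays left out. It called 26 higher and 2 lower with no condition covariate, 334 and 13 with the marker mean as a number, 1 and 0 with arrays split within their own condition, 159 and 63 with Cidea alone, and 1774 and 2519 at the study's thresholds. Leaving out 1 array in turn gave 0 to 1 higher (1 without CIH 8W+Nor 4W replicate 1) and 0 to 3 lower (3 without Nor 12W replicate 3). The fit on the marker mean (334 higher, 13 lower) gave 184 and 5 with Adipoq alone, 202 and 9 with Plin1 alone, 370 and 5 after median centring, 355 and 20 without dim probe sets, 390 and 21 with array weights, 120 and 0 with the replicate block, 269 and 4 without the neuronal arrays and 51 and 1 without the 2 arrays with the most fat, and 160 to 362 higher and 2 to 27 lower without 1 array (27 without Nor 8W replicate 4). With the marker mean, CIH 8W vs. Nor 8W called 4139 probe sets, 2219 without dim ones, 0 at an adjusted p under 0.05, 619 at a fold change over 1.5, and 2654 to 7770 without 1 array (the lowest lacking Nor 8W replicate 3, the highest CIH 8W replicate 1). CIH 12W vs. Nor 12W called 9393, and 5078, 107, 2430 and 5975 to 10140 (without Nor 12W replicate 3 and replicate 1) under the same settings in that order. The comparison of CIH 12W with CIH 8W+Nor 4W gave 4481 calls, and 1727, 7, 359 and 3413 to 5579. The difference of Fasn turned to 0.78 with no condition covariate, 0.31 with the marker mean as a number, 0.46 within conditions, 0.19 with Adipoq alone, 1.12 with Cidea alone, and it ran over -0.39 to 0.25 with 1 array left out, above 0 where CIH 8W replicate 1 (0.25) or CIH 8W replicate 5 (0.036) was left out. Lep turned to 0.044 with the marker mean as a number, Retn to -0.78 with Cidea alone, Mir125b-2 to -0.030 with no condition covariate and -0.033 with Cidea alone, and Cpt1b in CIH 12W vs. Nor 12W with the marker mean, which ran over -0.79 to 0.027 with 1 array left out, to 0.027 without CIH 12W replicate 2. Of the other values of single genes under an alternative, 2693 kept their direction and side of the threshold, 75 newly passed it and 6 no longer did. In the split no probe set passed an adjusted p of 0.05. Where that was the threshold, genes of the split could only keep their side or newly pass, so these counts do not measure robustness. The median of the fatty acid oxidation list stayed above 0 in 37 of 37 alternatives (0.373 to 0.812), as did those of the brown (0.353 to 0.819) and citrate cycle lists (0.217 to 0.509). That of the synthesis list kept its sign in 25. Same-numbered arrays of different conditions correlated at -0.459 to 0.691 (median 0.0208) in their deviations, and differently numbered ones at -0.591 to 0.523 (median -0.00956). The numbers were not used to pair the arrays in the main fits, and whether they mark a batch was not tested. The causes of these dependences were not tested.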

Other observations

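After Fos was seen to be lower in fat-rich aortas, 21 immediate early genes, which cells transcribe within minutes of a stimulus, were listed and described. Fos is 1 of the 21 and chose the list, so the counts are a description. Over all genes 3.21% were higher and 4.57% lower at the study's thresholds, with a median difference of -0.0257, and that balance depends on the scaling. The share of all genes with a difference below 0 was not counted. Of the 20 genes besides Fos, 0 were higher and 6 lower in fat-rich aortas at the study's thresholds, 17 differences were below 0, and the median was -0.228. Within Nor 12W 4 of these 6 had a difference above 0 (Btg2 0.85, Nr4a2 0.36, Egr1 0.18 and Dusp1 0.13), and in the fit on the marker mean 0 of the 21 passed an adjusted p of 0.05 in limma. Dusp1, a phosphatase that switches off MAP kinases, had a lowest, median and highest signal of 13.48, 13.92 and 14.54 in fat-rich aortas and of 13.7, 14.73 and 15.54 in fat-poor aortas, a difference of -0.88 (SE 0.223). Egr1 had 6.552, 7.443 and 8.234 in fat-rich aortas and 7.168, 8.185 and 9.29 in fat-poor aortas, a difference of -0.72 (SE 0.243). Btg2 differed by -0.82 (SE 0.273), Zfp36 by -0.70 (SE 0.273), Ier2 by -0.57 (SE 0.159) and Nr4a2 by -0.56 (SE 0.22). Nr4a1 (-0.86, SE 0.594) and Jun (-0.36, SE 0.26) did not pass. The sides overlapped in Dusp1 and Egr1, and the handling of the tissue was not tested as a part of these values.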
